A study of Mus musculus with 6 samples.

Results

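The cells described here are the endothelial cells of mouse brain microvessels that carry transcripts of Plvap and of other genes of fenestrated-type endothelium. They were chosen by detected transcripts. A barcode had to hold at least 1000 UMIs (unique molecular identifiers, each counting 1 captured RNA molecule) with at most 15% from mitochondrial genes. It had to show at least 3 of the 5 endothelial genes Pecam1, Cdh5, Flt1, Ly6c1 and Esam, and at most 2 UMIs summed over the mural and microglial genes Vtn, Rgs5, Acta2, Tagln, C1qa and Ctss. Of the 22474 barcodes that met these limits, 738 (3.28%) also showed at least 3 of the 6 markers Plvap, Esm1, Rbp7, Gpihbp1, Cd300lg and Col13a1, and these are called Plvap-gated cells below. The other 21736 endothelial cells of the same libraries were the comparison. In all, the libraries held 30586 barcodes, of which 27852 passed the limits on UMIs and mitochondrial genes.

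Brain microvessel fragments were captured with magnetic beads bearing an antibody to PECAM1, dissociated and profiled with the 10x Genomics v3.1 single-cell chemistry, which counts the 3′ ends of transcripts. The Cldn5 iECKO group (3 libraries) was on C57Bl6 and carried the tamoxifen-inducible Cre Cdh5-creERT2+ together with Cldn5 fl/fl and R26 YFP/YFP. The control group (3 libraries) was C57Bl6 Cldn5 fl/fl, R26 YFP/YFP, without Cre, so that floxed Cldn5 and the YFP reporter alleles were shared by all mice. All mice received tamoxifen by gavage (100 µl at 20 mg/ml on 3 days in a row) at about 3 months of age, and the Cdh5 promoter that drives creERT2 is endothelial and not particular to barrier vessels. Whether each library comes from 1 animal or a pool is not given in the labels. The p-values below therefore measure the spread between these libraries, which may be partly technical.

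Plvap encodes the protein that builds the diaphragms of fenestrae, of caveolae and of transendothelial channels. Fenestrated capillaries, which let plasma solutes pass, supply the choroid plexus, the circumventricular organs and the endocrine glands, whereas the endothelium of the blood-brain barrier makes little Plvap and instead carries sealed tight junctions and a dense set of transporters. In barrier vessels Wnt and β-catenin signalling keeps Plvap low and barrier genes high. Fenestrae are seen by electron microscopy, which was not part of these data, so the word fenestrated-type refers to genes alone.

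The gated cells numbered 126, 52 and 72 in iECKO libraries 1 to 3, against 164, 239 and 85 in control libraries 1 to 3. Their median depth was 3611 to 6859 UMIs in iECKO libraries and 4293 to 8514 UMIs in control libraries, while the other endothelial cells had medians of 4216 to 5843 UMIs in iECKO libraries and 3721 to 4883 UMIs in control libraries. Gated cells were deeper than the other endothelial cells of their library in 5 of 6 libraries and shallower in iECKO library 2. That library is also the thinnest source of gated cells, with 231993 UMIs in all, where 1 UMI equals 4.31 CPM (UMIs per 1000000 UMIs of the sum), and the remaining libraries gave 677859 to 1492820 gated UMIs. Levels below are CPM of the summed UMIs of a class of cells in a library. No gated barcode was shared between libraries, and any pair of libraries shared 0 to 16 barcodes over all cells. The YFP feature had 0 UMIs in every library, so recombined cells could not be marked by it.

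Few endothelial cells had an intermediate number of markers. There were 20808 cells with none of the 6 markers, 846 with 1 and 82 with 2. Within the gate there were 83 cells with 3 markers, 156 with 4, 211 with 5 and 288 with all 6. The counts therefore passed through a low at 2 and 3 markers, and the largest gated group showed every marker. As a description of the threshold, cells with 3 markers had 1950 CPM of Plvap and cells with 2 markers had 644 CPM. Genes that the gate did not use changed over the same range. Plpp3, a membrane phosphatase that breaks down lysophosphatidic acid and sphingosine 1-phosphate, stood at 2080 CPM in cells with 3 markers, 630 CPM in cells with 2, 60.7 CPM in cells with 1 and 26.5 CPM in cells with none, so its larger fold step lay between 1 and 2 markers. Cldn5 stood at 845 CPM in cells with 3 markers, 2700 CPM in cells with 2, 3370 CPM in cells with 1 and 3890 CPM in cells with none.

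**Figure D1:**
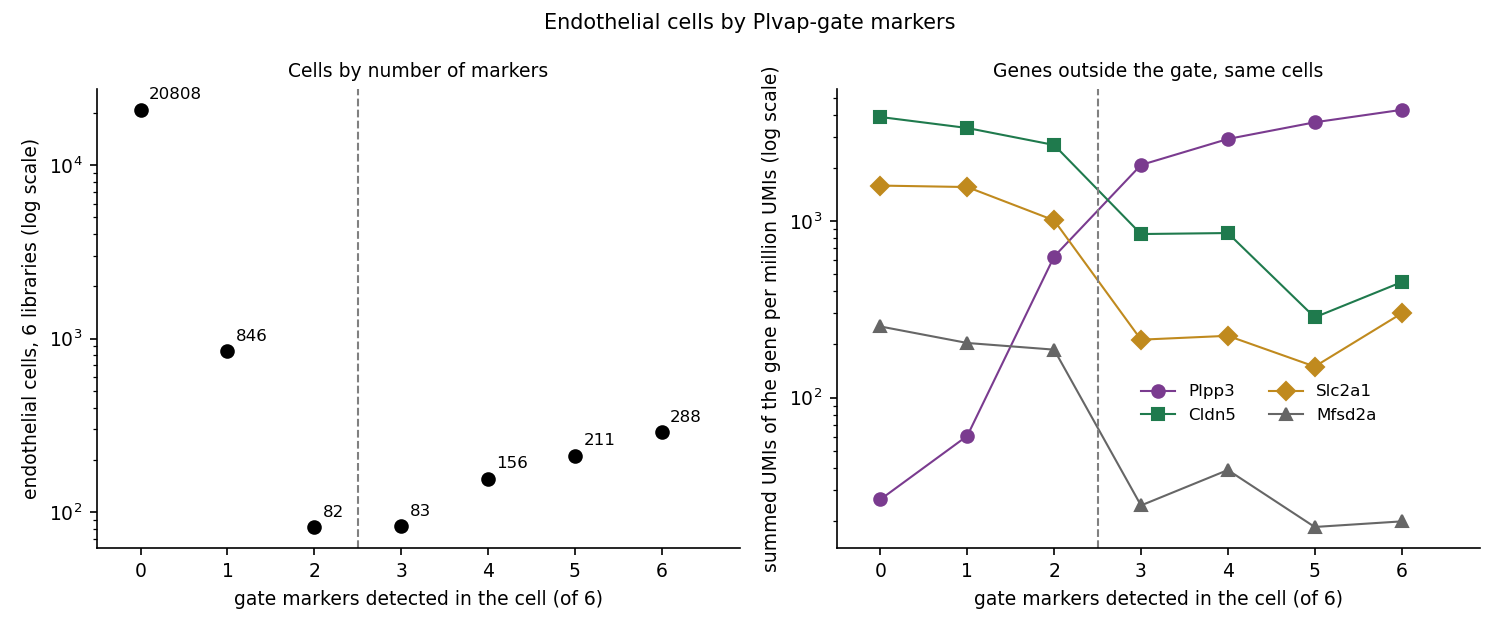
Left, number of endothelial cells (log scale) by how many of the 6 gate markers were detected, with the gate at 3 or more shown by the dashed line. Right, summed level of 4 genes outside the gate in the same cells (CPM, log scale, 6 libraries pooled); Plpp3 stood at 2080 in cells with 3 markers and 26.5 in cells with none, and Cldn5, Slc2a1 and Mfsd2a were lower in every gated bin than in every bin outside the gate.

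The 6 markers chose the cells, so their levels are given with no test. Plvap had 2340, 2430 and 3420 CPM in gated cells of iECKO libraries and 3350, 2520 and 3680 CPM in gated cells of control libraries, while other endothelial cells held at most 15.9 CPM. Rbp7, a retinol-binding protein of peripheral capillaries, ranged from 485 to 642 CPM in gated iECKO cells and from 338 to 838 CPM in gated control cells. Gpihbp1, which anchors lipoprotein lipase to the capillary wall, ranged from 319 to 791 CPM in gated iECKO cells and from 442 to 909 CPM in gated control cells. In these 3 genes the 2 genotypes overlapped. Cd300lg, a receptor of capillary and venular endothelium, ranged from 513 to 749 CPM in gated iECKO cells and from 440 to 817 CPM in gated control cells. Col13a1, a transmembrane collagen, ranged from 402 to 639 CPM in gated iECKO cells and from 348 to 528 CPM in gated control cells. Esm1, which encodes the secreted proteoglycan endocan and responds to VEGF, was the exception: it had 479, 517 and 739 CPM in gated iECKO cells and 1060, 1150 and 1380 CPM in gated control cells, with no overlap.

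The markers sit at different places in the genome (GRCm38, GENCODE M21). Plvap (ENSMUSG00000034845) spans chr8:71497765-71511752 on the minus strand and Esm1 (ENSMUSG00000042379) chr13:113209659-113218098 on the plus strand. Plpp3 (ENSMUSG00000028517) spans chr4:105157347-105232764 and Cldn5 (ENSMUSG00000041378) chr16:18776847-18778262, both on the plus strand. The 4 promoters printed here were picked because they belong to genes at the ends of the pattern: 2 genes high in gated cells (Plpp3 and Esm1) and 2 genes low in them (Cldn5 and Mfsd2a). Each is the 250 bases before the RefSeq start on GRCm38.p6, 5′ to 3′ on the strand of the gene, with matches to the TCF/LEF core CTTTGA or its reverse TCAAAG, the binding letters of the nuclear effectors of Wnt signalling, in capitals.
Plpp3, chr4:105157097-105157346, plus strand: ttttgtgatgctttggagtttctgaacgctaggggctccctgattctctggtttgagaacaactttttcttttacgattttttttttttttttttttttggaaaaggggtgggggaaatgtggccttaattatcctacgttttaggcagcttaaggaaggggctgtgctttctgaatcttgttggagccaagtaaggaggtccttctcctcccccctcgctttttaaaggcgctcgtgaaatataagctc
Esm1, chr13:113209409-113209658, plus strand: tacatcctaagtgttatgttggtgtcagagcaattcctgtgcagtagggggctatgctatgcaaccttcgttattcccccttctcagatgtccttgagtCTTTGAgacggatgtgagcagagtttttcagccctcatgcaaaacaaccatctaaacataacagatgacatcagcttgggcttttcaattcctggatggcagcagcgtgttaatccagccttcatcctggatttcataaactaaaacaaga
Cldn5, chr16:18776597-18776846, plus strand: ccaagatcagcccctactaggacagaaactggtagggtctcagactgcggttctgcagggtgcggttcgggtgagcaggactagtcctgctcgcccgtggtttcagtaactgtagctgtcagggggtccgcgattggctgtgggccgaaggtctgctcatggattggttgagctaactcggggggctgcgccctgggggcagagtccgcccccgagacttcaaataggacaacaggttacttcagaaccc
Mfsd2a, chr4:122961189-122961438, minus strand: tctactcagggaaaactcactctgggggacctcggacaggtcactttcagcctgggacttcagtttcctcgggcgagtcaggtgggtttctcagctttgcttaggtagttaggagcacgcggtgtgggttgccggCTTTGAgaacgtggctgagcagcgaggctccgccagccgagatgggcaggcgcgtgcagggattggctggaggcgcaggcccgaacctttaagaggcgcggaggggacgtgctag
Esm1 and Mfsd2a held 1 match each, and Plpp3 and Cldn5 held 0. Over 32851 RefSeq promoter windows of this length, 13.8% held the TCF/LEF core on either strand. Among the genes that stood furthest apart between the classes (named below), 1 of the 10 windows of higher genes held it (Col15a1), and 4 of the 18 windows of 12 lower genes held it (in Ccdc141, Lef1, Mfsd2a and Spock2). The SOX core ACAAT (reverse ATTGT) was in 2 of the 10 and 3 of the 18, against 27.7% of all windows. The GATA core AGATAA (reverse TTATCT) was in 1 of the 10 and 1 of the 18, against 9.99% of all windows. No motif contains another, and each was counted separately on both strands. A match of letters is a description and no site.

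Gated cells and the other endothelial cells of the same library were then compared over all genes. Genes of peripheral and fenestrated endothelium were far higher in gated cells, and genes of the blood-brain barrier, its transporters and its Wnt programme were far lower. In edgeR's quasi-likelihood test with the library as a block, 2171 of 12537 genes were higher (17.3%) and 2117 were lower (16.9%) in gated cells at an adjusted p under 0.05, 34.2% in all, and the median log2 difference over all genes was -0.03. The 17 genes of the gates were left out of these counts. Since the classes were cut from the same counts, the p-values say only how steadily a difference recurred over 6 libraries. They are no test of whether the cells are a type.

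The genes with large gains included a lipid phosphatase, a surface glycoprotein, receptors and a collagen. Plpp3 had 2710, 3340 and 4620 CPM in gated cells of iECKO libraries and 3590, 3560 and 5320 CPM in gated cells of control libraries. Other endothelial cells had 45.8, 32.3 and 30.7 CPM of Plpp3 in iECKO libraries and 16.1, 32.9 and 24.1 CPM in control libraries. Every gated value lay far above every other value, and the log2 difference was 7.05 ± 0.40 (SE, adjusted p = 6.32e-05). Cd24a, a small glycoprotein anchored in the cell surface, had 1370, 603 and 1830 CPM in gated iECKO cells, 1710, 1500 and 1060 CPM in gated control cells and 7.13 to 19.1 CPM in other endothelial cells. Its log2 difference was 6.76 ± 0.22 (adjusted p = 1.16e-07), and iECKO library 2 was the lowest of the gated values. Igfbp3, a secreted binding protein of insulin-like growth factors, had 2930, 2060 and 3420 CPM in gated iECKO cells and 2690, 2750 and 4830 CPM in gated control cells. Outside the gate Igfbp3 had 214, 55.5 and 16.3 CPM in iECKO libraries and 29.7, 43.2 and 22.4 CPM in control libraries. The classes did not overlap, and the log2 difference was 6.20 ± 0.79 (adjusted p = 0.00247; 0.176 with iECKO libraries alone).

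Of the 15 genes with the largest gains among abundant genes, the remaining 12 were Btnl9, Car8, Fam167b, Exoc3l2, Col15a1, Hecw2, Slc43a3, Piezo2, Tnfaip2, Ednrb, Thrsp and Jam3, with log2 differences between 5.44 and 9.56. Btnl9, a butyrophilin-like surface protein, held 172 to 310 CPM in gated iECKO cells and 314 to 467 CPM in gated control cells, against at most 1.6 CPM in other endothelial cells. Ednrb, the endothelin B receptor, held 358 to 527 CPM in gated iECKO cells and 374 to 661 CPM in gated control cells, against at most 6.52 CPM. Piezo2, a mechanically gated ion channel, held 187 to 263 CPM in gated iECKO cells and 260 to 335 CPM in gated control cells, against at most 7.63 CPM. These genes were thus low in the sums of other endothelial cells, and whether a few of those cells held more was not tested. Outside the gate Piezo2 had 4.67, 7.63 and 1.45 CPM in iECKO libraries and 0.496, 1.52 and 0.341 CPM in control libraries. Its log2 difference between genotypes there was 2.55 with same-numbered libraries paired (edgeR adjusted p = 0.0144). Unpaired, it did not pass (edgeR adjusted p = 0.455). Jam3, a junctional adhesion molecule, stood at 132 to 307 CPM in gated iECKO cells and 251 to 259 CPM in gated control cells, with 4.47 to 7.88 CPM in other endothelial cells.

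The listed genes of peripheral and fenestrated endothelium were higher in gated cells for the most part. Of 18 tested, 15 were higher and 1 was lower in gated cells, with a median log2 difference of 3.51, against the median of -0.03 over all genes. Over all genes tested, 17.3% were higher and 16.9% lower. This list and those below were chosen with earlier results of these data known. Their counts are therefore a description and no test of the name given to the cells. Kdr, the main VEGF receptor, had 1950, 3000 and 3250 CPM in gated iECKO cells and 2850, 3310 and 3780 CPM in gated control cells, against 514, 871 and 790 CPM in other iECKO cells and 509, 671 and 767 CPM in other control cells. Emcn, the mucin endomucin of capillaries and veins, had 2000, 1810 and 2310 CPM in gated iECKO cells and 2500, 2160 and 2020 CPM in gated control cells, against 386 to 509 CPM in other iECKO cells and 419 to 515 CPM in other control cells. These 2 genes are broadly endothelial and differed less, by 2.16 ± 0.10 for Kdr and 2.25 ± 0.08 for Emcn. Plpp1, a phosphatase related to Plpp3, differed by 4.92 ± 0.14 and the VEGF co-receptor Nrp1 by 2.83 ± 0.15. The water channel Aqp1 held 60.2 to 138 CPM in gated iECKO cells and 69.5 to 176 CPM in gated control cells, against at most 2.39 CPM in other endothelial cells. Vwf, the clotting factor carrier of veins, was the lower one (log2 difference -2.72 ± 0.71), and Aplnr, the apelin receptor, did not pass (0.25 ± 0.20, adjusted p = 0.361).

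**Figure D2:**
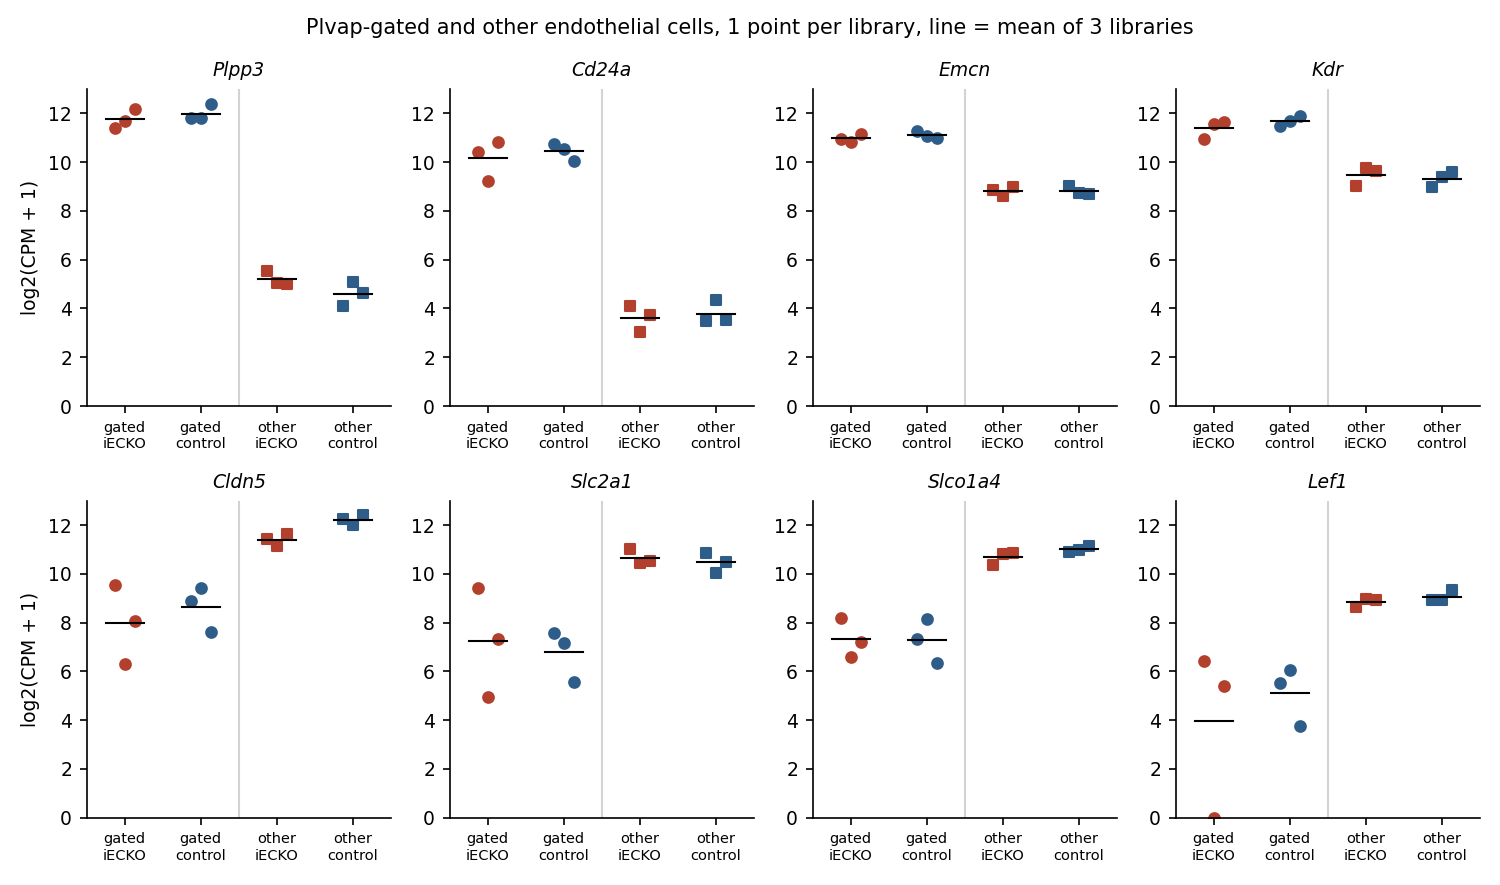
Level of 8 genes as log2(CPM + 1), 1 point per library with the mean of 3 libraries as a line, for gated iECKO, gated control, other iECKO and other control cells. Plpp3, Cd24a, Emcn and Kdr (top) lay higher in every gated sum than in every other sum, and Cldn5, Slc2a1, Slco1a4 and Lef1 (bottom) lay lower, with a wider spread among the gated sums.

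Barrier transporters were lower in gated cells almost throughout. Of 24 tested, 23 were lower and 0 higher in gated cells, with a median log2 difference of -3.08. Slc2a1, the glucose transporter GLUT1, had 694, 30.2 and 158 CPM in gated iECKO cells and 192, 143 and 46.6 CPM in gated control cells. Other endothelial cells had 2080, 1390 and 1480 CPM of Slc2a1 in iECKO libraries and 1870, 1060 and 1450 CPM in control libraries. The classes did not overlap, and gated iECKO library 1 was the highest gated value. The log2 difference was -3.29 ± 0.54 (adjusted p = 0.0067), and within a genotype alone it did not pass (adjusted p = 0.252 in iECKO libraries and 0.0604 in control libraries). Mfsd2a, which carries lysophosphatidylcholine with docosahexaenoic acid into the brain and restrains transcytosis, had 35.4, 0 and 17.7 CPM in gated iECKO cells and 31.5, 20.1 and 3.41 CPM in gated control cells. Outside the gate Mfsd2a held 231 to 243 CPM in iECKO libraries and 217 to 319 CPM in control libraries, and the log2 difference was -3.61 ± 0.38 (adjusted p = 0.00084).

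Slco1a4, an organic anion transporter, had 290, 94.8 and 148 CPM in gated iECKO cells and 158, 282 and 80.7 CPM in gated control cells, against 1320 to 1880 CPM in other iECKO cells and 1900 to 2270 CPM in other control cells (log2 difference -3.45 ± 0.39, adjusted p = 0.0015; 0.106 in iECKO libraries alone and 0.057 in control libraries alone). Abcb1a, the efflux pump P-glycoprotein, had 373, 194 and 199 CPM in gated iECKO cells and 179, 302 and 125 CPM in gated control cells, against 1080 to 1590 CPM in other iECKO cells and 1310 to 1620 CPM in other control cells. Its log2 difference was -2.67 ± 0.29 (adjusted p = 0.00105), and the classes did not overlap. Abcg2, another efflux pump, was lower by a smaller step (-1.40 ± 0.12), with 267 to 510 CPM in gated iECKO cells and 246 to 300 CPM in gated control cells. Of the 15 most reduced abundant genes, Tfrc, Slco1c1, Mfsd2a and Slco1a4 are uptake proteins: Tfrc, the transferrin receptor, differed by -3.72 ± 0.37 and the thyroid hormone carrier Slco1c1 by -3.65 ± 0.36 (adjusted p = 0.125 in iECKO libraries alone). Also among them were Prom1, Ptn, Spock2, Lrrn3, Ddc, Cobll1, Ndnf, Ccdc141, Lef1 and Cldn5, with log2 differences between -3.60 and -3.38. Among genes of brain capillaries, 10 of 12 tested were lower and 0 higher, with a median of -3.12. The 2 lists overlap: Slc16a1, Slc16a4, Mfsd2a, Slco1a4, Slc7a5, Tfrc and Slc22a8 were also counted among the lower barrier transporters.

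Genes of Wnt and β-catenin signalling were mostly lower in gated cells. Of 19 tested, 16 were lower and 3 higher in gated cells, with a median log2 difference of -2.05. The 3 higher ones act at the membrane: the tetraspanin Tspan12 (1.72 ± 0.08), the receptor Fzd4 (0.78 ± 0.10) and the co-receptor Lrp5 (1.11 ± 0.10). The lower ones included the receptor Fzd6, the co-receptors Lrp6, Adgra2 and Reck, and transcription factors and feedback targets of the pathway. Lef1, a nuclear partner of β-catenin, had 85.9, 0 and 41.3 CPM in gated iECKO cells and 44.9, 65.7 and 12.5 CPM in gated control cells, against 395 to 496 CPM in other iECKO cells and 481 to 640 CPM in other control cells. Its log2 difference was -3.46 ± 0.52 (adjusted p = 0.00468), with adjusted p = 0.199 in iECKO libraries alone and 0.0689 in control libraries alone. Tcf7, a related factor, differed by -3.49 ± 0.21, the feedback inhibitor Axin2 by -3.03 ± 0.39, the secreted inhibitor Notum by -3.12 ± 0.23 and the barrier transcription factor Foxq1 by -3.22 ± 0.33.

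Junction genes were reduced in part. Of 15 tested, 9 were lower and 2 higher (Ilk and Jam3), with a median log2 difference of -0.73. Ocln, which encodes the tight junction protein occludin, differed by -2.94 ± 0.36 and Lsr, the angulin of tricellular junctions, by -2.87 ± 0.42. The scaffold Tjp1 kept 261, 341 and 264 CPM in gated iECKO cells and 236, 320 and 244 CPM in gated control cells, against 466 to 732 CPM in other iECKO cells and 634 to 720 CPM in other control cells. The step for Tjp1 was thus smaller, at -1.22 ± 0.09, and that for the adhesion molecule Jam2 was -0.73 ± 0.08.

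**Figure D3:**
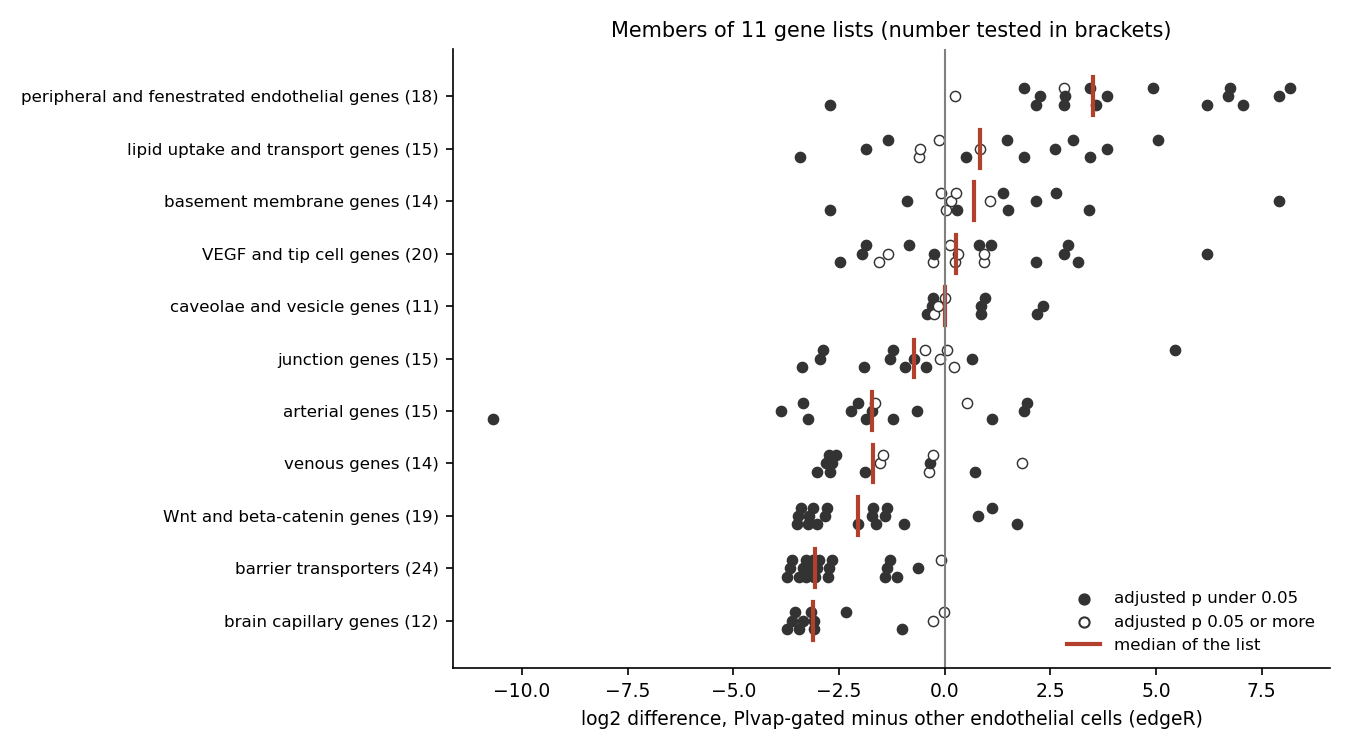
Log2 difference between Plvap-gated and other endothelial cells (edgeR) for the tested members of 11 gene lists, with the number tested in brackets, the median as a red bar and filled points for an adjusted p under 0.05. Barrier transporters and brain capillary genes lay below 0 throughout, and the peripheral and fenestrated genes lay above 0 except Vwf; the arterial gene at the far left is Cytl1, which had no UMI in gated cells, so its place depends on the prior count of the fit.

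Matrix, lipid and caveolar genes showed mixed shifts. Of 14 basement membrane genes, 7 were higher and 2 lower, with a median of 0.69. Col15a1, a collagen of the outer basement membrane, held 151 to 304 CPM in gated iECKO cells and 287 to 426 CPM in gated control cells, against at most 2.16 CPM in other endothelial cells. Hspg2, the heparan sulfate proteoglycan perlecan, differed by 2.64 ± 0.20, while Agrn (agrin) differed by -0.90 and Col18a1 by -2.72. Of 15 genes of lipid uptake and transport, 8 were higher and 3 lower, with a median of 0.83. Lpl, the lipase that Gpihbp1 binds, held 33.9 to 71.8 CPM in gated iECKO cells and 15.4 to 49.6 CPM in gated control cells, against 0.951 to 1.82 CPM in other endothelial cells (log2 difference 5.05 ± 0.25). Angptl4, an inhibitor of that lipase, differed by -3.42 ± 0.28, on 0 to 8 gated UMIs per library.

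The caveolar list showed no common direction: of 11 genes tested, 5 were higher and 3 lower, with a median log2 difference of 0.00. The lower ones were the coat genes Cav1, Cav2 and Cavin1, and Cav1 was at 198 to 317 CPM in gated iECKO cells and 232 to 268 CPM in gated control cells, against 240 to 356 CPM in other iECKO cells and 342 to 411 CPM in other control cells (-0.41 ± 0.13, adjusted p = 0.0266). The higher ones were Cavin2, Cavin3, Ehd2, Snx33 and Flot2. Of 20 VEGF and tip cell genes, 7 were higher and 5 lower, with a median of 0.28. The higher ones held the receptors Kdr, Flt4, Nrp1 and Nrp2, and the lower ones the ligands Vegfc and Pgf and the peptide hormone Adm. Apln, a tip cell ligand, had 2.66, 0 and 2.95 CPM in gated iECKO cells and 4.02, 4.63 and 18.2 CPM in gated control cells and did not pass (-1.35 ± 0.87, adjusted p = 0.311). It passed in iECKO libraries alone (-3.94, adjusted p = 9.42e-10), without control library 3 (-2.33, adjusted p = 0.049) and with the highest doublet scores left out (-2.20, adjusted p = 0.0102), and turned to 0.33 in control libraries alone (adjusted p = 0.61).

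Genes of arterial and venous endothelium were mostly lower too. Of 15 arterial genes, 10 were lower and 3 higher, with a median of -1.72. Efnb2, the ephrin that marks arteries, was higher by 1.94 ± 0.11 and the gap junction gene Gja4 by 1.88 ± 0.15, whereas Cytl1 had no UMI in any gated sum, against 7.68 to 25.0 CPM in other endothelial cells. Of 14 venous genes, 8 were lower and 1 was higher, with a median of -1.70. The higher one was Ephb4, the receptor of Efnb2 on veins (0.72 ± 0.10). Vcam1, an adhesion molecule for leukocytes, differed by -3.02 ± 0.51 over 6 libraries, with adjusted p = 0.207 in iECKO libraries alone and 0.0835 in control libraries alone.

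The label was also checked against markers of other cells, as summed CPM in the gated cells. Markers of 7 fibroblast genes summed to 0 to 7.38 CPM in iECKO libraries and 0.772 to 3.35 CPM in control libraries, with Col3a1 and Slc6a13 at 0. Of 8 pericyte genes the sum was 7.09 to 8.62 CPM in iECKO libraries and 5.36 to 9.09 CPM in control libraries, though the gate itself removed mural and microglial transcripts. Of 4 ependymal genes the sum was 0 CPM in iECKO libraries and 0 to 0.67 CPM in control libraries, with Tmem212, Ccdc153 and Rarres2 at 0. Outside the gate the fibroblast sums were 1.78 to 8.82 CPM, the pericyte sums 2.94 to 9.33 CPM and the ependymal sums 0.662 to 25.0 CPM. The astrocyte sum of 6 genes was 190 to 205 CPM in gated iECKO cells and 215 to 264 CPM in gated control cells, against 106 to 183 CPM in other iECKO cells and 61.6 to 81.9 CPM in other control cells. Gated cells were higher in every library, most of the sum was Gja1, which endothelium also makes, and Gfap was at 0. Of the pericyte genes, the potassium channel subunit Abcc9 was higher in gated cells (2.72 ± 0.65, adjusted p = 0.00262), on 1 to 6 gated UMIs per library.

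Markers of choroid plexus epithelium, which makes much transthyretin (Ttr), were counted too. The 10 markers summed to 302 to 434 CPM in gated iECKO cells and 142 to 6880 CPM in gated control cells, and 1 cell of control library 1 held 8979 of the 9045 Ttr UMIs of that library's gated cells. Without cells of at least 100 Ttr or haemoglobin UMIs, the sums were 179 to 436 CPM in gated iECKO cells and 143 to 349 CPM in gated control cells, against 213 to 263 CPM in other iECKO cells and 102 to 304 CPM in other control cells. None of the 10 markers differed between the classes in the test, with a median of 0.27. The data do not say from which brain region a gated cell came. Erythrocyte genes summed to 51.7 to 24400 CPM in gated iECKO cells and 3550 to 8710 CPM in gated control cells, and to 51.7 to 296 and 28.4 to 186 CPM without those cells. Lymphocyte genes stood at 103 CPM in gated cells of iECKO library 2 and at 0 to 1.77 CPM in the other 5 libraries.

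The remaining barrier transcripts were set against microglia as a background, with every cell thinned to 1000 UMIs. Free RNA, doublets and any such transcripts made by the microglia themselves cannot be told apart in this background. Before thinning, microglia had median depths of 2995.5 to 5494 UMIs in iECKO libraries and 2614 to 5018 UMIs in control libraries. Slc2a1 was detected in 1.92% to 14.3% of gated iECKO cells and 3.53% to 7.93% of gated control cells, against 2.56% to 5.49% and 2.4% to 7.19% of microglia and 60.0% to 80.0% of other endothelial cells. Mfsd2a was detected in 0% to 2.78% of gated iECKO cells and 0% to 1.26% of gated control cells, with 0% to 1.31% of microglia. Gated Slc2a1 was above microglia in 5 of 6 libraries and below it in iECKO library 2, and the exact 95% intervals of gated cells and microglia overlapped in every library for both genes. Slco1a4 was detected in 7.69% to 11.1% of gated iECKO cells and 8.24% to 10.5% of gated control cells, above the 3.37% to 5.13% and 0.84% to 2.4% of microglia in every library. Its intervals in gated cells and microglia still overlapped in every iECKO library and in control library 3. Abcb1a was detected in 13.9% to 25.0% of gated iECKO cells and 8.24% to 15.9% of gated control cells, above the 0% to 2.75% of microglia in every library. Plpp3 was detected in 89.7% to 96.2% of gated iECKO cells and 91.2% to 98.8% of gated control cells, against 1.43% to 3.98% of other endothelial cells and 0% to 2.56% of microglia.

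Most gated cells showed none of 5 barrier genes. At 1000 UMIs, 519 gated cells showed none of Slc2a1, Slco1a4, Mfsd2a, Abcb1a and Cldn5, 148 showed 1 and 39 showed 2. Another 32 showed at least 3 of the 5, of which 1 showed all. These 32 cells were in 5 libraries, with none in iECKO library 2. Scrublet's own threshold marked 0 or 1 doublet per library, so doublets were kept. Only as an alternative were the barcodes with the highest scores left out, which took 92 of the 738 gated cells. The mean gated share of endothelial cells fell from 2.62% to 2.48% in iECKO libraries and from 3.67% to 3.28% in control libraries. Gated cells were thus left out more often than other endothelial cells, except in iECKO library 2, where the share rose from 2.88% to 2.91%. With those barcodes left out, the gated level of Slc2a1 was 387, 30.2 and 63.6 CPM in iECKO libraries and 50.2, 81.8 and 42.2 CPM in control libraries, lower in 5 of 6 libraries. Part of the barrier RNA of the gated sums thus lay in barcodes with high doublet scores.

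Cldn5, the targeted gene, encodes claudin-5, the main sealing protein of endothelial tight junctions in the brain. In gated cells it had 745, 77.6 and 268 CPM in iECKO libraries and 468, 686 and 195 CPM in control libraries. The other endothelial cells had 2770, 2240 and 3140 CPM in iECKO libraries and 4810, 4140 and 5530 CPM in control libraries. The gated values were lower than every other value and overlapped between the genotypes, whereas in other endothelial cells every iECKO value lay below every control value. The class difference was -3.38 ± 0.49 on the log2 scale (adjusted p = 0.00422). It was -3.23 in iECKO libraries alone (adjusted p = 0.181) and -3.51 in control libraries alone (adjusted p = 0.0857), and it passed with any 1 library left out (-3.67 to -3.09). With the highest doublet scores left out, gated Cldn5 was 247, 77.6 and 49.8 CPM in iECKO libraries and 56.1, 329 and 188 CPM in control libraries.

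Between genotypes, Cldn5 in gated cells averaged 364 ± 344 CPM in iECKO and 450 ± 246 CPM in control libraries (SD, n = 3 each). The log2 difference was -0.32 ± 0.94 (edgeR adjusted p = 1.0), and it turned to 0.10 without iECKO library 2, to 0.20 without control library 2 and to 0.39 with Esm1 and Col13a1 left out of the gate. In other endothelial cells Cldn5 averaged 2720 ± 454 CPM in iECKO and 4830 ± 693 CPM in control libraries, a log2 difference of -0.83 ± 0.20 (adjusted p = 0.277) and -0.84 ± 0.09 (adjusted p = 0.0106) when same-numbered libraries were paired; that paired test called 118 of 13868 genes higher (0.851%) and 43 lower (0.31%), 1.16% in all. The interaction, the iECKO effect in gated cells minus that in other cells, was 0.33 ± 1.03 for Cldn5 (adjusted p = 0.992). The sources used here do not give which stretch of Cldn5 is floxed, so the counted 3′ end may lie outside it.

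Counted by cells, the genotypes again overlapped within the gate, as the percentage with no Cldn5 UMI after thinning each cell to 1000 UMIs. It was 86.5%, 92.3% and 95.8% of gated iECKO cells and 86.6%, 83.7% and 91.8% of gated control cells, with means of 91.5% ± 4.71 in iECKO and 87.3% ± 4.09 in control libraries (SD, n = 3 each). The difference of 4.21 percentage points had p = 0.3 in a two-sided exact permutation test, in which 3 against 3 libraries cannot go below 0.1. In other endothelial cells the share was 31.3%, 31.3% and 24.3% in iECKO libraries and 5.24%, 6.91% and 2.87% in control libraries (means 29.0% ± 4.05 and 5.01% ± 2.03, n = 3 each, p = 0.1 in the exact permutation test, the smallest possible). Gated cells thus exceeded other cells by 62.6 ± 8.3 points in iECKO and 82.3 ± 6.12 points in control libraries (n = 3 each, exact permutation p = 0.1). As a measure of background, 6.04%, 7.69% and 1.12% of microglia in iECKO libraries and 4.58%, 21.6% and 5.04% in control libraries had a Cldn5 UMI. The share of gated cells with a Cldn5 UMI stood at or below that background in iECKO library 2 (7.69%) and control library 2 (16.3%). It stood above the background in iECKO libraries 1 and 3 (13.5% and 4.17%) and in control libraries 1 and 3 (13.4% and 8.24%). Without thinning, gated cells with no Cldn5 UMI made up 69.3% ± 4.27 in iECKO and 68.8% ± 7.19 in control libraries. A loss of Cldn5 within gated cells was not detected, and the part of background and depth in this was not tested.

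The gated share of endothelial cells was 2.64% (95% exact Clopper-Pearson interval 2.2 to 3.14), 2.88% (2.16 to 3.75) and 2.33% (1.83 to 2.92) in iECKO libraries. In control libraries it was 3.52% (3.01 to 4.1), 4.85% (4.27 to 5.49) and 2.64% (2.11 to 3.25). Control library 2 was the highest, and iECKO libraries 1 and 2 were at or above control library 3, so the genotypes overlapped. Between same-numbered libraries, the share was lower in iECKO in 3 of 3 pairs, with p = 0.25 in the paired exact permutation test, the smallest that 3 pairs allow. The means were 2.62% ± 0.274 in iECKO and 3.67% ± 1.12 in control libraries (SD, n = 3 each), a difference of -1.06 points with p = 0.3 in the two-sided exact permutation test. Detection of markers depends on depth. With each cell thinned to 1000 UMIs, the shares were 1.87% ± 0.274 in iECKO and 2.59% ± 0.178 in control libraries, with p = 0.1 in the exact permutation test, the smallest this design allows. The intervals cover counting error only.

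**Figure D4:**
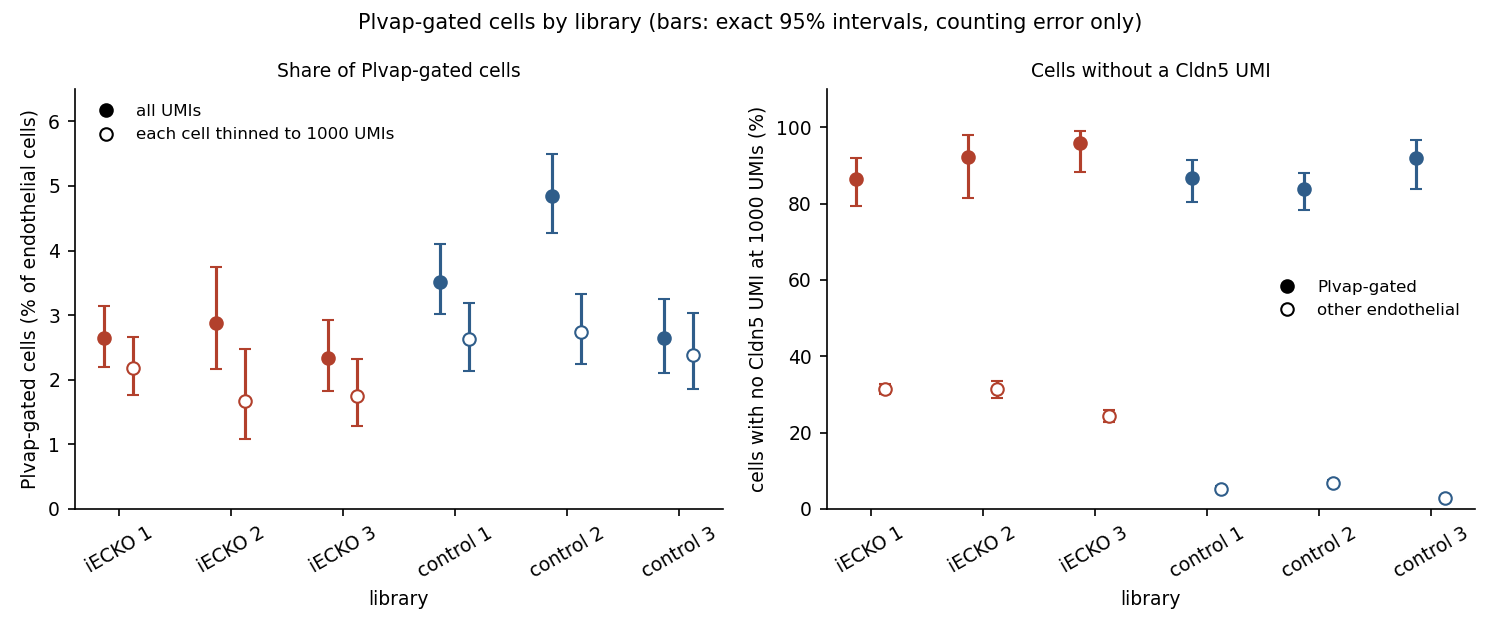
Left, Plvap-gated cells as a percentage of endothelial cells in each library, with all UMIs (filled) and with each cell thinned to 1000 UMIs (open). Right, percentage of cells without a Cldn5 UMI at 1000 UMIs in gated (filled) and other endothelial cells (open); bars are exact 95% intervals, iECKO libraries in red stand left of control libraries in blue, and gated cells lie at 83.7% to 95.8% in every library.

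Within the gated cells, few genes passed a test between the genotypes. In edgeR's test, 0 of 8330 genes were higher and 0 lower in iECKO libraries at an adjusted p under 0.05 (0% each way), with 198 genes at an unadjusted p under 0.05. DESeq2 also called 0 genes, with 83 at an unadjusted p under 0.05. With the replicate number as a block, 1 of 8814 genes was higher (0.0113%) and 0 were lower, with 500 at an unadjusted p under 0.05. Without the filter on low counts, 18 of 15638 genes were higher and 4 lower. The median log2 difference between genotypes was -0.21 for the 15 tested genes of peripheral and fenestrated endothelium, 0.19 for 22 barrier transporters and 0.15 for 16 Wnt genes, against 0.00 over all genes, and none of their members passed.

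The 1 gene was Slco2a1 (ENSMUSG00000032548, chr9:102988712-103096002, plus strand), which encodes the prostaglandin transporter. It had 85.0, 129 and 121 CPM in gated iECKO cells and 32.2, 47.9 and 46.6 CPM in gated control cells, with means of 112 ± 23.5 CPM in iECKO and 42.2 ± 8.73 CPM in control libraries (SD, n = 3 each). Every iECKO value exceeded every control value. The log2 difference was 1.35 ± 0.25 (edgeR adjusted p = 0.383) and, with the replicate block, 1.39 ± 0.19 (adjusted p = 0.00187). In other endothelial cells Slco2a1 was low in both genotypes, at 8.75, 8.23 and 8.11 CPM in iECKO libraries and 7.11, 12 and 9.37 CPM in control libraries. The interaction for Slco2a1 was 1.5 ± 0.26 (adjusted p = 0.00493).

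Esm1 was tested in cells gated without Esm1 and Col13a1, since the gate would otherwise fix part of its level. It had 507, 395 and 735 CPM in iECKO libraries and 1070, 1340 and 1360 CPM in control libraries (546 ± 173 and 1260 ± 162 CPM, SD, n = 3 each). No iECKO value reached a control value, and the two-sided exact permutation p was 0.1, the smallest possible. The log2 difference was -1.22 ± 0.25 with an edgeR adjusted p = 0.463, and -1.23 ± 0.16 with an adjusted p = 0.000393 under the replicate block. That test was added after the levels of Esm1 had been seen.

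The iECKO effect in gated cells differed from that in other endothelial cells for a small set of genes. The interaction was positive for 5 of 12537 genes (0.0399%) and negative for 26 (0.207%) at an adjusted p under 0.05 in edgeR, with 896 at an unadjusted p under 0.05. With the replicate block the counts were 93 (0.742%) and 241 (1.92%), and all 31 genes passed again with the same sign. The blocked calls also held 6 of 10 markers of choroid plexus epithelium with a negative interaction (Ecrg4, Kl, Folr1, Otx2, Prlr and Clic6; median of the list -4.04) and the lymphocyte gene Cd79a with a positive one (6.95), and the part of such cells in these counts was not tested. Without the block none of the 10 markers passed (median -3.33). The counts were 2 positive and 12 negative without iECKO library 1, 12 and 24 without iECKO library 2, and 20 and 147 without iECKO library 3. They were 8 and 20 without control library 1, 5 and 33 without control library 2, and 3 and 19 without control library 3.

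The named genes with a negative interaction included Nid1, Pcdh12, Dcbld1 and Kit. Nid1, the basement membrane linker nidogen-1, had 161, 220 and 224 CPM in gated iECKO cells and 244, 246 and 315 CPM in gated control cells. Outside the gate it had 89.4, 105 and 70.0 CPM in iECKO libraries and 33.3, 32.5 and 37.1 CPM in control libraries. The genotypes were apart in both classes and in opposite order, with an interaction of -1.78 ± 0.22 (adjusted p = 0.000951). Pcdh12, an endothelial protocadherin, had 52.3, 60.3 and 79.7 CPM in gated iECKO cells and 89.1, 81.9 and 127 CPM in gated control cells. Outside the gate Pcdh12 had 23.9, 29.0 and 20.7 CPM in iECKO libraries and 9.35, 8.28 and 12.7 CPM in control libraries. The order of the genotypes again turned round, with an interaction of -1.89 ± 0.25 (adjusted p = 0.000787).

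Dcbld1 had 35.4, 47.4 and 39.8 CPM in gated iECKO cells and 89.1, 66.4 and 63.6 CPM in gated control cells, against 9.92, 17.0 and 8.54 CPM in other iECKO cells and 3.81, 5.24 and 4.47 CPM in other control cells (interaction -2.16 ± 0.30, adjusted p = 0.000951). Kit, the receptor of stem cell factor, rested on few gated UMIs: it had 2.66, 0 and 1.48 CPM in gated iECKO cells and 2.01, 3.86 and 5.68 CPM in gated control cells. Outside the gate Kit had 37.4, 18.2 and 11.9 CPM in iECKO libraries and 1.49, 3.04 and 3.07 CPM in control libraries (interaction -4.37 ± 0.75, adjusted p = 0.00489). Apln stood at 46.1, 54.7 and 18.2 CPM in other iECKO cells and 5.75, 6.32 and 6.94 CPM in other control cells (interaction -4.29 ± 0.74, adjusted p = 0.015). Kit had 0 to 5 and Apln 0 to 16 gated UMIs per library, too few to be tested within gated cells. The gated side of both interactions thus rested on very few UMIs. For Apln, the log2 difference between genotypes in other endothelial cells was 2.68 ± 0.45 and did not pass (edgeR adjusted p = 0.18). The Apln interaction of -4.29 therefore also drew on the gated sums, in which control library 3 held 16 UMIs. Kit lost the call without iECKO library 1 (adjusted p = 0.308). In the lists, 4 of 20 VEGF and tip cell genes had a negative interaction (Kit, Plxnd1, Nrp1 and Apln; median -1.27), and so did 4 of 14 basement membrane genes (Col4a1, Col4a2, Sparc and Nid1; median -0.91), against a median of -0.02 over all genes.

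Genes with a positive interaction were Slco2a1, Sox17, Lifr, Sema3c and Slc6a6. Sema3c, a secreted semaphorin, had 201, 284 and 190 CPM in gated iECKO cells and 192, 195 and 151 CPM in gated control cells, against 309, 450 and 401 CPM in other iECKO cells and 596, 640 and 662 CPM in other control cells. The genotypes were apart in other endothelial cells and overlapped in gated cells, with an interaction of 1.00 ± 0.17 (adjusted p = 0.00489; 0.0536 without iECKO library 1 and 0.0912 without control library 3). Slc6a6, the taurine transporter, had 970, 1010 and 1190 CPM in gated iECKO cells and 554, 763 and 744 CPM in gated control cells. In other endothelial cells Slc6a6 had 1300, 1520 and 2240 CPM in iECKO libraries and 1680, 1940 and 2950 CPM in control libraries (interaction 0.97 ± 0.16, adjusted p = 0.00489; 0.0767 without control library 3).

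**Figure D5:**
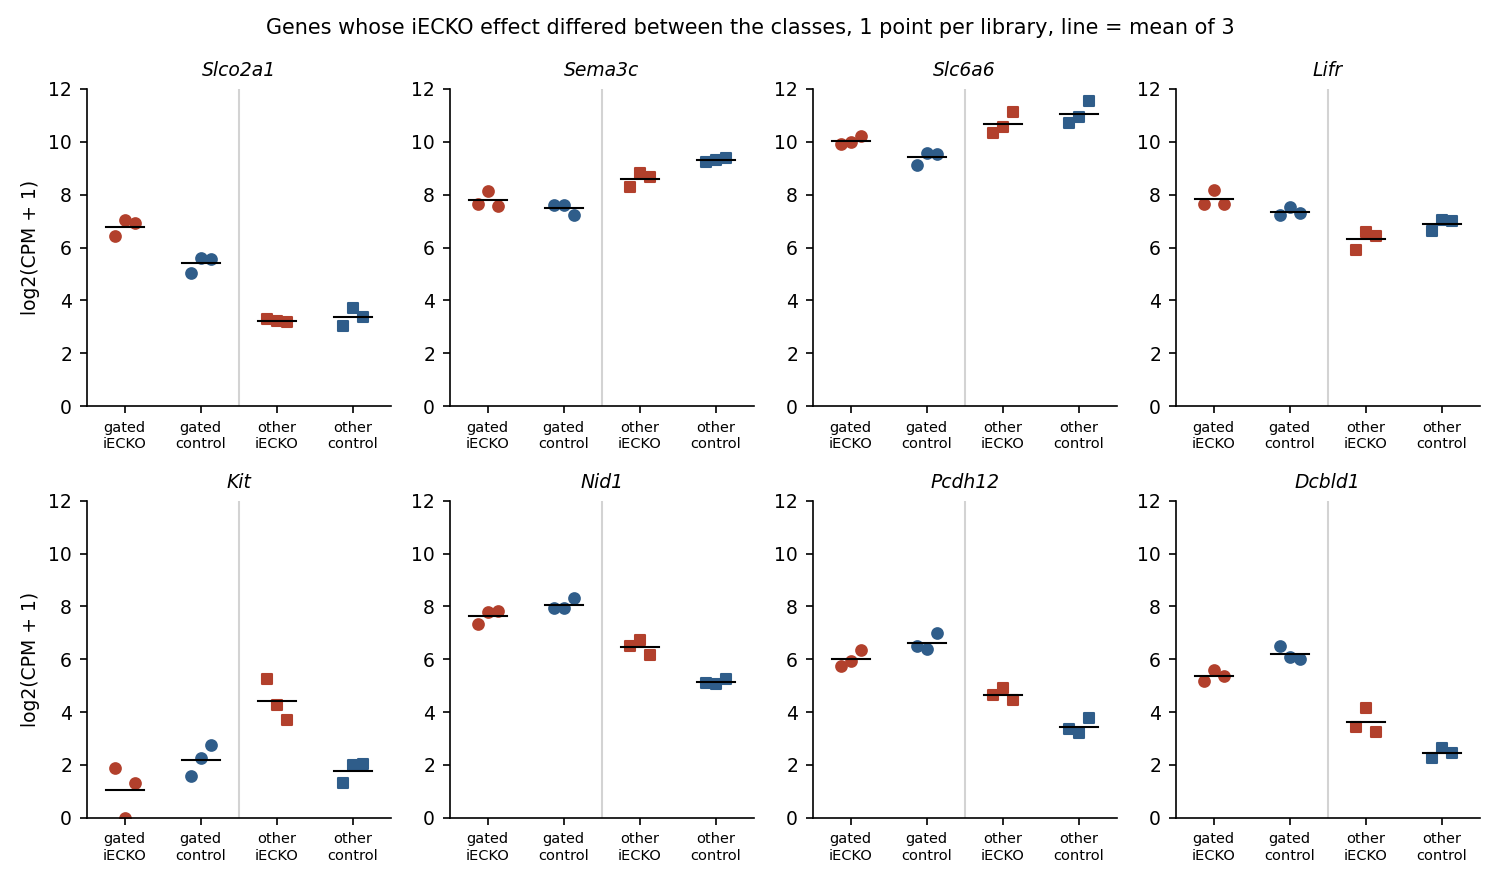
Level of 8 genes with an interaction past the threshold, as log2(CPM + 1), 1 point per library with the mean of 3 libraries as a line, for gated iECKO, gated control, other iECKO and other control cells. In the top row the gated iECKO mean lay above the gated control mean and the other iECKO mean below the other control mean; in the bottom row both orders were turned round, and a gated Kit value of 0 marks a library without a UMI.

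Of 14 venous genes tested, 0 passed the interaction without the replicate block, 13 were positive and the median was 1.67. With the replicate block, 3 passed, all positive (Lcn2, Nr2f2 and Lrg1), and the median was 1.28. In the gated cells alone, 9 of 9 tested were positive with a median of 1.06, and 0 passed. Vwf had 407, 12.9 and 97.4 CPM in gated iECKO cells and 20.8, 74.9 and 13.6 CPM in gated control cells, and Lrg1, a secreted glycoprotein of inflamed venules, had 412, 17.2 and 38.4 CPM in gated iECKO cells and 13.4, 6.95 and 14.8 CPM in gated control cells. For both genes iECKO library 1 was highest and iECKO library 3 was also above every control value. In iECKO library 2, Lrg1 was above every control value too, whereas Vwf was below every control value. Both margins were smaller than the 4.31 CPM that 1 UMI equals in that library. The highest gated Slc2a1 and Cldn5 were also in iECKO library 1. The part of that library in the venous medians was not tested.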

How the data were processed

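The 6 libraries of single cells (3 Cldn5 iECKO, 3 control) were analysed from the deposited filtered matrices of UMI counts, which per the file headers came from Cell Ranger 6.1.1. The submitters' processing notes name mm10 and Seurat. The counts are raw, not normalized, and hold 32286 features. Libraries held 2714 to 7420 barcodes and 15727366 to 49350802 UMIs in all, and every barcode had at least 500 UMIs.

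The gates given in the report were applied with Python 3.11.15 (numpy 2.4.6, scipy 1.17.1, pandas 2.3.3). Doublets were scored with Scrublet in scanpy 1.11.5 and kept. Of the gated cells, 568 had no UMI of the 6 mural and microglial genes that the gate limits. Counts were summed per library and class and tested with edgeR 4.0.16 (R 4.3.3, limma 3.58.1; robust quasi-likelihood, TMM scaling, filter on low counts, Benjamini-Hochberg adjustment over all genes, threshold 0.05). Gated and other cells were compared with the library as a block. The 17 gate genes were left out of adjustment and counts. CPM are UMIs per 1000000 UMIs of the class sum, without TMM. DESeq2 1.42.0, other scalings, filters, gates and left-out libraries were alternatives. The steps were tested on simulated data.

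The labels do not say what same-numbered libraries share, so pairing them by replicate number is an assumption of the blocked tests. Residuals of same-numbered iECKO and control libraries correlated at 0.257, 0.184 and 0.155 over 8336 genes in gated cells. In other cells they correlated at 0.283 to 0.326 over 13394 genes. Differently numbered libraries correlated at -0.247 to 0.0892 in gated cells and at -0.221 to -0.0904 in other cells. Residuals were taken from the mean of 3 libraries per group, so these correlations are not independent of each other. The gene lists and the cells were chosen with earlier results of these data known. Named were the gate markers, Cldn5, Plpp3, Slc2a1, Mfsd2a, Abcb1a, Slco1a4 and Apln, the 15 largest steady differences each way among abundant genes, the 10 largest interactions and genotype differences each way, and up to 4 called members of each list. Further genes (among them Axin2, Foxq1, Fzd4, Lrp5, Ocln, Lsr, Lrg1, Aqp1 and Aplnr) were named for their function after their values had been seen. Of the genes that the rule names, 2 are not reported here. Sequences came from RefSeq (GRCm38.p6).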

Additional observations from a re-analysis of the deposited data

Results flagged for a closer look

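The iECKO effect in Plvap-gated cells minus that in other endothelial cells differed from 0 by the interaction term of edgeR for the 14 genes named here, given on the log2 scale. Above 0 were Slco2a1 at 1.5, Sox17 at 1.05, Lifr at 1.00, Sema3c at 1.00 and Slc6a6 at 0.97. Below 0 were Kit at -4.37, Ppm1j at -3.54, Itga4 (integrin α4) at -2.35 and Dcbld1 at -2.16. Also below 0 were Bcl2 (an inhibitor of apoptosis) at -1.99, Pcdh12 at -1.89, Nid1 at -1.78, Cerk (ceramide kinase) at -1.70 and Fam102a at -1.66. Over 19 alternatives, Slco2a1, Dcbld1, Pcdh12, Nid1 and Cerk kept an adjusted p under 0.05 in all. Lifr, Sema3c, Kit and Ppm1j lost it in 2 each, Slc6a6, Itga4 and Bcl2 in 1 each, Sox17 in 5 and Fam102a in 10. Kit's adjusted p was 0.308 without iECKO library 1 and 0.155 with cells of mixed markers left out.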

How the results depend on the processing

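Few cells and 3 libraries per genotype limit the gated sums. In gated cells, genotype counts (higher and lower) were 1 and 1 with cells of mixed markers left out, 18 and 4 without the filter, 1 and 0 with the replicate block, and 20 and 7 with the block and a gate without Esm1 and Col13a1. Gated against other cells gave 1205 and 1034 genes in iECKO libraries alone, and 1817 to 2237 and 1695 to 2218 with a library left out. The class difference of Cldn5 did not pass in control libraries alone (-3.51) or iECKO libraries alone (-3.23). Its genotype difference in gated cells was 0.39 with the gate without Esm1 and Col13a1, and -1.38 to 0.20 with a library left out (0.20 without control library 2, 0.10 without iECKO library 2). Interaction counts were 10 higher with that gate, 10 and 47 with mixed cells left out, 36 and 129 without the filter, 8 and 41 with cells rich in Ttr or haemoglobin left out, 93 and 241 with the block, and 2 to 20 and 12 to 147 with a library left out. Apln turned to 0.33 in control libraries alone, and Ccdc153 (2.45) and Tmem212 (2.46) turned sign in DESeq2, both with 0 gated UMIs. With the replicate block, whose balance leaves mean differences as they are, p was 0.25 for the share (-1.06) and 0.5 for cells without Cldn5 (4.21), with 0.25 the smallest possible in the exact permutation test, and Cldn5 in gated cells stood at -0.32. For 94 genes, 1970 of 2031 class values stayed on their side of the threshold, 55 lost it, 3 gained it and 3 reversed. The cause of these changes was not tested.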

Other observations

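Genes of antigen presentation were higher in gated than in other endothelial cells, while other interferon-induced genes went both ways. Bst2, Ifitm2 and Rsad2 were higher, and Isg15, Oasl2, Irf7, Ifi27l2a, Ifit3 and Ifit1 were lower. Of 18 interferon and MHC class I genes tested, 10 were higher and 6 lower, with a median log2 difference of 0.50 against -0.03 over all genes. H2-D1, a class I heavy chain, held 1640 to 2040 CPM in gated iECKO cells and 1780 to 1980 CPM in gated control cells, against 880 to 1370 CPM in other endothelial cells (0.79 ± 0.08). Psmb9, a subunit of the immunoproteasome, differed by 1.07 ± 0.10 and Ifit1, an antiviral protein, by -1.56 ± 0.12.

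Immediate-early and stress genes, which tissue dissociation is known to induce, were also higher for the most part: 11 of 18 were higher in gated cells and 1 was lower, with a median of 0.48. Fos held 1310 to 1520 CPM in gated iECKO cells and 1380 to 1710 CPM in gated control cells, against 709 to 1180 CPM in other endothelial cells. Of 16 genes of endothelial activation, 3 were higher and 5 lower, with a median of -0.39. Over all genes tested, 17.3% were higher and 16.9% lower in gated cells, so the share of activation genes that were higher was near that of all genes. None of these lists had a member past the threshold between genotypes in gated cells.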
